A study of Danio rerio with 6 samples.

Results

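The chaperonin CCT, also called TRiC, is the folding machine of the eukaryotic cytosol, and its subunit genes were followed here in sas10 mutant and wild type zebrafish embryos. The members were the genes tcp1, cct2, cct3, cct4, cct5, cct6a, cct7 and cct8, taken by symbol with every identifier a symbol has. They came to 9 gene models for 8 subunits, of 32520 genes in the count table, and all 9 models were among the 21708 genes expressed highly enough to be tested. The symbol cct2 is carried by 2 gene models, a long one and a short one, which lie near each other on chromosome 4 on opposite strands and are given apart. The identifier for cct6a bears the symbol of the related gene CCT6B in the name table used, and it was matched to cct6a because its neighbours on the chromosome are those that RefSeq gives for cct6a.

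Poly(A) RNA of whole embryos at 5 days post fertilization was sequenced from 3 libraries of sas10 mutants (headed s1, s2 and s3) and 3 libraries of wild type (headed wt11, wt12 and wt13). Sas10, encoded by utp3 in zebrafish, belongs to the particle that processes the precursor of the small ribosomal RNA. The labels name no allele or strain, no treatment in either group, and neither the clutches nor the number of embryos behind a library. They call the libraries biological repeats, and without a stated origin the p-values measure only the spread between these samples.

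CCT is built of back-to-back rings in which each subunit has its own fixed place, and it closes over an unfolded chain and opens again in step with ATP hydrolysis. Its best known clients are actin and tubulin, which cannot fold without it, and proteins with WD40 propellers such as the G protein beta subunits and the cell cycle regulator Cdc20. Prefoldin hands nascent actin and tubulin to it, and phosducin-like proteins help it with particular clients. Since the assembled ring takes every subunit in equal number, the amounts of the subunit messages relative to each other are of interest beside their sum. In zebrafish, the mutant known as no tectal neuron carries a lesion in cct3, and loss of cct5 has been studied for its effect on the assembly of muscle sarcomeres.

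Facts of the whole dataset that bear on these genes are few. Each library held between 17599625 and 19718753 counted read pairs. Values are given as CPM, counts scaled to 1000000 on library sizes adjusted by the TMM method of edgeR. A principal component analysis of log2 CPM set the genotypes apart on its leading axis, with 85.8% of the variance, and wt11 stood furthest from its own group. As the check of the labels, utp3 had 10.7, 11.3 and 10.5 CPM in the mutant libraries, against 35.0, 34.7 and 27.2 CPM in wild type. This was a log2 fold change of -1.58 ± 0.13 (SE), with an adjusted p of 1.53e-06 by edgeR's quasi-likelihood test with Benjamini-Hochberg adjustment over all tested genes. The members lie on 8 chromosomes, and 0 of the 9 models lie on the chromosome of utp3.

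All 9 CCT gene models were higher in sas10 mutants than in wild type. Their log2 fold changes, mutant over wild type, ran from 0.42 to 1.16 with a median of 1.02, a 2.02-fold difference, while the median of all tested genes was -0.04. All 9 passed the edgeR test at an adjusted p under 0.05, on a background in which 30.5% of tested genes were called higher, 31.8% lower and 62.2% in either direction. The 3 mutant libraries lay above the 3 wild type libraries for every one of the 9 models, which was so for 33.5% of all tested genes. With edgeR 0 models were called lower, 0 were lower at an unadjusted p under 0.05, and DESeq2 and limma voom also called 0 lower. CPM are relative to the other messages of a library, so higher here need not mean a larger amount of RNA. In RNA of whole embryos, a larger share of cells of a type and more RNA per cell cannot be told apart.

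The subunits are taken by the size of their difference, beginning with the 6 whose level in mutants was close to 1.8 times that in wild type or above. cct5 encodes the epsilon subunit. It lies on chromosome 24 from 16905188 to 16912897 on the forward strand of GRCz11 (gene ENSDARG00000045399), the build of all coordinates given. Its message stood at 507, 515 and 456 CPM in the mutant libraries, against 261, 218 and 185 CPM in wild type. The lowest mutant library was 1.75 times the highest wild type library, so the groups were well apart. The fitted log2 fold change was 1.16 ± 0.14 (SE), with a 95% confidence interval of 0.84 to 1.47 and an adjusted p of 3.33e-05, and it was the largest point estimate of the 9 models. Its annotated exons share 278 of 1906 bases with cmbl, where reads could belong to either gene, and cmbl itself had a log2 fold change of 0.02.

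cct3, the gamma subunit gene affected in the no tectal neuron mutant, lies on chromosome 16 from 30408697 to 30421275 on the reverse strand (ENSDARG00000016173). It was read at 514, 507 and 447 CPM in the mutant libraries, against 252, 222 and 189.6 CPM in wild type. All mutant values were at least 1.78 times the highest wild type value. The log2 fold change was 1.15 ± 0.14 (SE; 95% interval 0.85 to 1.45; adjusted p of 2.34e-05).

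cct2 encodes the beta subunit. Its long model (ENSDARG00000104674; chromosome 4, 78022547 to 78026285, reverse strand; 994 exon bases) had 233, 221 and 208 CPM in the mutant libraries, against 120.4, 100.02 and 86.0 CPM in wild type. Its short model (ENSDARG00000087206; chromosome 4, 78008298 to 78009682, forward strand; 330 exon bases) had 96.7, 90.9 and 85.9 CPM in the mutant libraries, against 52.7, 45.3 and 31.9 CPM in wild type. Both models kept their groups apart and moved by like amounts, with log2 fold changes of 1.11 ± 0.13 and 1.07 ± 0.16 (SE; adjusted p of 2.48e-05 and 0.000148). RefSeq lists 1 cct2 gene in a later assembly, and the counts of both models summed gave a log2 fold change of 1.101 with an adjusted p of 4.98e-05, an alternative chosen after the data were seen.

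cct7, the eta subunit gene, lies on chromosome 7 from 60148452 to 60156409 on the reverse strand (ENSDARG00000007385) and had the highest counts of the family in mutants. It stood at 571, 577 and 514 CPM in the mutant libraries, against 302, 281 and 239.6 CPM in wild type. The groups did not overlap, and the lowest mutant value was 1.703 times the highest wild type value. The log2 fold change was 1.02 ± 0.13 (SE; 95% interval 0.73 to 1.30; adjusted p of 4.25e-05).

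tcp1, the gene of the alpha subunit and the founding member of the family, lies on chromosome 23 from 2421313 to 2443881 on the forward strand (ENSDARG00000017891). Its values were 424, 451 and 406 CPM in the mutant libraries, against 238, 238 and 206 CPM in wild type. Its wild type values had the smallest spread for their size among the members on the CPM scale, though not on the TPM scale used below. The mutant libraries were all above them. The log2 fold change was 0.91 ± 0.12 (SE; 95% interval 0.65 to 1.17; adjusted p of 5.20e-05).

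cct4, the delta subunit gene, lies on chromosome 1 from 53701801 to 53714885 on the reverse strand (ENSDARG00000013475). It had 492, 494 and 434 CPM in the mutant libraries, against 321, 261 and 205 CPM in wild type. The wild type libraries were spread widely, with wt11 the highest, and the lowest mutant library was 1.35 times wt11. The log2 fold change was 0.85 ± 0.16 (SE; adjusted p of 0.0007). It shares 152 of its 1914 exon bases with pus10, which had a log2 fold change of 1.47.

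cct6a and cct8 differed least. cct6a encodes the zeta subunit and lies on chromosome 21 from 41819288 to 41839684 on the reverse strand (ENSDARG00000021252). It had 482, 504 and 457 CPM in the mutant libraries, against 402, 359.8 and 314 CPM in wild type. The groups were apart by a narrow margin, the lowest mutant library being 1.14 times the highest wild type library. The log2 fold change was 0.42 ± 0.13 (SE; 95% interval 0.14 to 0.71), a 1.34-fold difference with an adjusted p of 0.0135. The adjusted p was 0.0717 with upper-quartile scaling (log2 fold change 0.29) and 0.0616 without the mutant library s2 (0.40), so its call depended on both.

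cct8, the theta subunit gene, lies on chromosome 10 from 25325808 to 25343521 on the reverse strand (ENSDARG00000008243). It had 328, 331 and 294 CPM in the mutant libraries, against 265, 231.5 and 199.7 CPM in wild type. The margin between the groups was the smallest of the family, a ratio of 1.11 between the lowest mutant and the highest wild type library. The log2 fold change was 0.45 ± 0.13 (SE; 95% interval 0.17 to 0.74), a 1.37-fold difference with an adjusted p of 0.0102. With upper-quartile scaling its adjusted p was 0.0533 (log2 fold change 0.32). The upper ends of the intervals of cct6a and cct8, 0.71 and 0.74, lay below the lower ends for cct2's long model, cct3 and cct5, which were 0.82, 0.85 and 0.84. The lower ends for cct2's short model (0.72) and cct7 (0.73) lay between these upper ends. Those for tcp1 (0.65) and cct4 (0.50) lay under both, so these intervals overlapped. The difference between subunits in fold change was not tested. In the ring order worked out for the yeast and mammalian complexes, CCT6 and CCT8 sit side by side. Both genes also have the longest annotated exons of the family, 4222 and 6359 bases, of which 350 are shared with rnf14 (ENSDARG00000043905, log2 fold change 0.88) and 281 with tmem135 (-0.07), and the part of these features in the smaller differences was not tested.

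The members were set among all tested genes by the size of their change. The share of tested genes with a larger log2 fold change was 10.5% for cct5, 10.6% for cct3, 11.2% and 11.9% for the long and short models of cct2, and 13.1% for cct7. It was 15.4% for tcp1, 16.9% for cct4, 29.8% for cct8 and 31.0% for cct6a. Many genes of the embryos thus had a larger log2 fold change than any member. The genes are abundantly expressed, and the least expressed model had a mean CPM above that of 89.3% of tested genes, with raw counts of the 9 models from 619 to 10639 per library.

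Beside 32520 genes in the count table and 21708 tested here, the authors' deposited table of their own comparison of the genotypes holds 8574 genes. It has no absolute log2 fold change under 0.585. It lists 7 of the 9 CCT models, and cct6a and cct8, whose fold changes here lie under that size, are not among them. The authors' deposited table gives log2 fold changes with standard errors of 1.09 ± 0.14 for cct5, 1.08 ± 0.13 for cct3 and 1.04 ± 0.14 for the long model of cct2. In the authors' deposited table the other values are 1.01 ± 0.17 for the short model of cct2, 0.95 ± 0.12 for cct7, 0.84 ± 0.11 for tcp1 and 0.78 ± 0.16 for cct4. The order of the 7 models by size was the same in that table as in the edgeR fit.

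Levels of different subunits can be compared only per exon length, as TPM (transcripts per 1000000 transcripts). Both models of cct2 were taken as parts of the same gene, with their counts and their exon lengths summed. On that footing the highest level in mutants was that of cct5, at 501, 520.5 and 467 TPM. It was followed by cct7 at 483, 499.5 and 450.2 TPM and cct4 at 483, 497 and 442 TPM. cct2, with both models together, had 468, 454 and 433 TPM in mutants. Taken alone, its short model had 551, 530 and 507 TPM in mutants, above cct5 in each library, and its long model 441, 428 and 408 TPM. The place of cct2 in the order thus rests on the summing, in both genotypes. As summed, cct5, cct7, cct4 and cct2 overlapped from neighbour to neighbour. cct3, at 403, 407 and 364 TPM, and tcp1, at 354, 385 and 351 TPM, overlapped each other and lay below them. cct6a, at 215, 229.7 and 211 TPM, and cct8, at 96.9, 100.3 and 90.1 TPM, were each apart from every other subunit.

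In wild type the first place was held by cct4, at 301, 277 and 242 TPM, and cct7 followed at 244, 256 and 243 TPM. cct5 had 246, 232 and 218 TPM, cct2 had 235, 222 and 201 TPM, and tcp1 had 189.8, 214 and 206 TPM. Each of these 5 overlapped its neighbour in the order. cct3 lay below tcp1 without overlap, at 189, 187 and 178 TPM. cct6a, at 171, 173 and 168 TPM, and cct8, at 74.8, 73.7 and 70.8 TPM, again came last. Between the genotypes the order thus differed at the top, where cct5 and cct4 changed places within overlapping ranges, and in the middle, where cct3 stood above tcp1 in mutants and below it in wild type. The ranges of cct3 and tcp1 overlapped in mutants. In wild type their nearest values, both of wt11, were 188.9 TPM for cct3 and 189.8 TPM for tcp1.

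**Figure D1:**
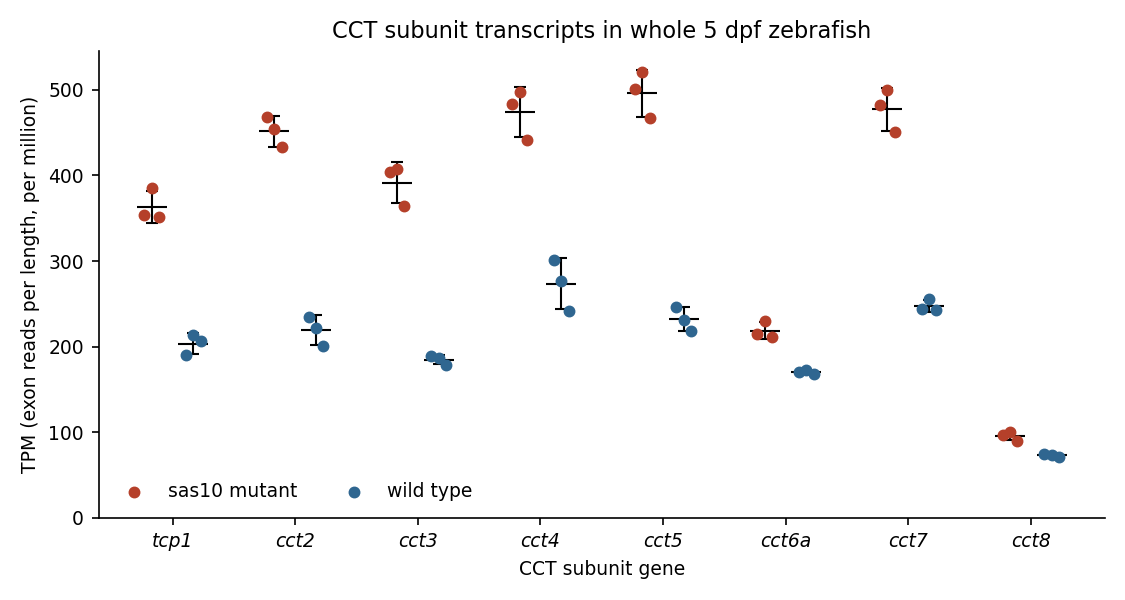
TPM of each CCT subunit in each library, sas10 mutant left of wild type within a subunit, points for libraries and bars for the mean ± SD (n = 3 each). cct5 averaged 496 TPM in mutants and 232 TPM in wild type, while cct8 averaged 95.8 TPM in mutants and 73.1 TPM in wild type.

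The 8 subunits together made up 0.3003%, 0.309% and 0.281% of all TPM in the mutant libraries, against 0.165%, 0.163% and 0.153% in wild type. The mean was 0.297% ± 0.0146 in mutants and 0.160% ± 0.00671 in wild type (SD, n = 3 each), a ratio of 1.85. Per exon length, the messages of the subunits were spread more widely in mutants. The ratio of the highest to the lowest subunit was 5.18 ± 0.00996 in mutants and 3.73 ± 0.299 in wild type, and the coefficient of variation over the subunits was 38.6% in mutants and 30.8% in wild type. For cct2 the exon lengths of both models were added, and the total, the spread and the shares rest on that. The exon lengths used are those of all annotated exons merged, so a gene with long, little used exons has a lower TPM than its main transcript would have. The direction of the difference in spread depended on this scaling: of the counts of the family, with no length scaling, the subunits took from 8.80% (cct2) to 15.6% (cct7) in mutants and from 7.45% (cct2) to 18.5% (cct6a) in wild type, the wider range then being that of wild type.

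Within the family total, cct6a and cct8 took smaller shares in mutants, and cct5, cct3, cct2 and cct7 larger ones. cct6a made up 7.14%, 7.42% and 7.52% of the CCT TPM in the mutant libraries, against 10.4%, 10.6% and 10.99% in wild type. cct8 made up 3.23%, 3.24% and 3.21% in the mutant libraries, against 4.53%, 4.51% and 4.64% in wild type. The differences, mutant minus wild type, were -3.28 percentage points for cct6a and -1.34 for cct8, and the groups lay apart for both genes.

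The epsilon subunit's gene cct5 rose to 16.7%, 16.8% and 16.6% of the CCT TPM in the mutant libraries, against 14.9%, 14.2% and 14.3% in wild type. The mean share of cct3 was 13.2% ± 0.234 in mutants and 11.5% ± 0.135 in wild type. That of cct2 was 15.2% ± 0.484 in mutants and 13.7% ± 0.548 in wild type, and that of cct7 was 16.1% ± 0.0565 in mutants and 15.4% ± 0.596 in wild type (SD, n = 3 each). For these 6 subunits the groups did not overlap, and an exact two-sided permutation test gave 0.1, the smallest p that 3 against 3 libraries allow, or 0.133 adjusted over the 8 subunits, so this design could not take any of them past 0.05. cct4 (16.0% ± 0.205 in mutants and 17.01% ± 1.201 in wild type, exact permutation p of 0.3) and tcp1 (12.2% ± 0.406 in mutants and 12.7% ± 1.05 in wild type, exact permutation p of 0.5) overlapped between the genotypes. The difference for cct7, 0.64 percentage points as given, was 0.31 without wt11 and 1.47 with no length scaling. With no length scaling the differences were -4.94 for cct6a and -3.00 for cct8, larger than on the TPM scale. That for cct4, -1.05 as given, was -0.43 without wt11, -1.63 without wt13 and -0.08 with no length scaling. That for tcp1, -0.45 as given, was -0.22 without s1, -1.05 without wt11, -0.25 without wt12, -0.05 without wt13 and 0.26 with no length scaling. Shares that add to a whole are not independent of each other.

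**Figure D2:**
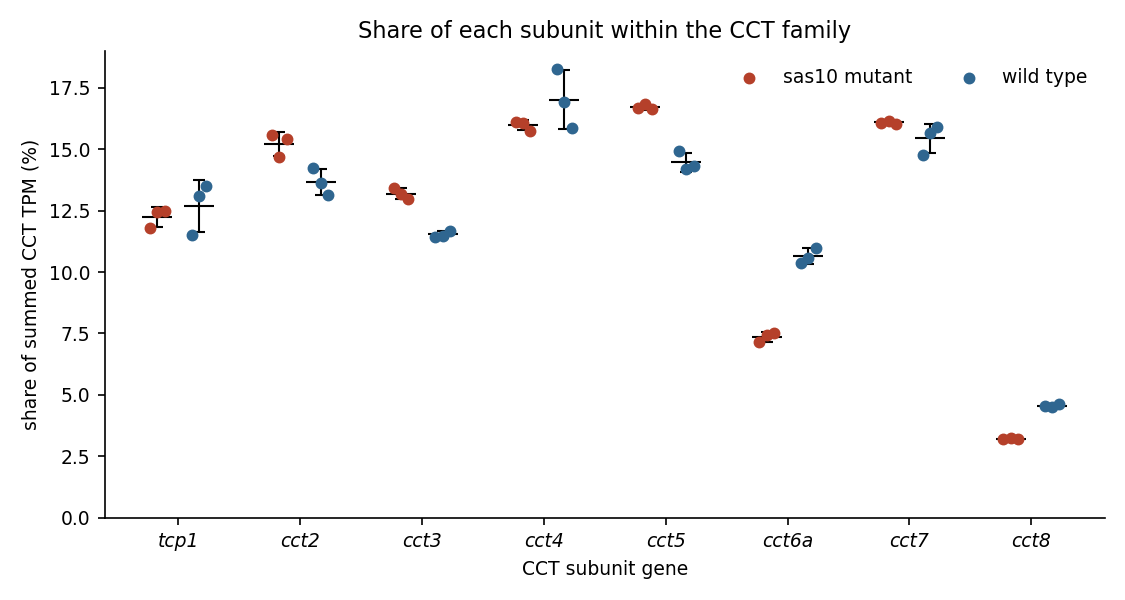
Share of each subunit in the summed TPM of the CCT family, in percent, for each library, sas10 mutant left of wild type, with the mean ± SD (n = 3 each). cct6a lies at 7.36% in mutants and 10.6% in wild type, and cct8 at 3.23% in mutants and 4.56% in wild type, without overlap.

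On the CPM scale the subunits also moved together among libraries of 1 genotype. In wt11 all 9 models lay above their wild type mean, by 0.21 on the log2 CPM scale on average, and in wt13 all 9 lay under it, with an average deviation of -0.24. In the mutants the deviations were smaller, at 0.05 in s1, 0.05 in s2 and -0.10 in s3, where 0 of the 9 models reached the mutant mean. The wild type libraries also differed in their TMM scaling factors, at 0.965 in wt11, 1.03 in wt12 and 1.105 in wt13, against 0.969, 0.964 and 0.980 in the mutant libraries, and on the TPM scale, which does not use them, the summed share of CCT ran only from 0.153% to 0.165% in wild type. By TPM, tcp1 had its lowest wild type value in wt11, at 189.8 TPM against 214 in wt12 and 206 in wt13. On that scale tcp1, cct6a and cct7 were highest in wt12, and the other models in wt11. The part of scaling in the joint deviations was not tested. How many of all tested genes deviated in the same way was not counted. All 9 models were called with any 1 wild type library left out.

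The genes whose profile over the 6 libraries came closest to the mean of the CCT members were ybx1, slc10a3, mrpl3, tomm40 and rabif. The likeness is the root mean square distance between log2 CPM profiles, each centred on its own mean, over 6 libraries of 2 genotypes, so it rests on the difference between genotypes and on the shared deviations of the libraries. ybx1, which encodes a cold shock domain protein that binds messenger RNA, had 2109, 2118 and 1898 CPM in the mutant libraries, against 1298, 1135 and 915 CPM in wild type, a distance of 0.0229. mrpl3, a protein of the mitochondrial ribosome, had 48.5, 49.5 and 45.9 CPM in the mutant libraries, against 28.2, 25.4 and 21.7 CPM in wild type, at 0.0308. tomm40, the channel through which proteins enter mitochondria, had 103, 104 and 97.9 CPM in the mutant libraries, against 60.8, 55.2 and 44.2 CPM in wild type, at 0.0309. The distances of slc10a3, a member of a solute carrier family, and of rabif, a factor that acts on Rab GTPases, were 0.0292 and 0.0366. The CCT models themselves lay at 0.061 (cct4) to 0.246 (cct6a) from their own mean profile. The 5 genes were picked for the smallest distances among tested genes with a symbol and at least 10 CPM. The members were not picked by distance, so the distances of the 5 genes and of the members cannot be compared.

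The partners that bring clients to CCT were examined next. All 6 subunit genes of prefoldin were higher in mutants by edgeR's test, with a median log2 fold change of 1.14. The share called higher over all tested genes was 30.5%. pfdn2 had 108, 109 and 124 CPM in the mutant libraries, against 40.1, 33.5 and 40.9 CPM in wild type, a log2 fold change of 1.57 ± 0.12 (SE). pfdn4 followed with 53.4, 49.3 and 43.8 CPM in the mutant libraries, against 24.7, 19.6 and 16.2 CPM in wild type (1.28 ± 0.15). The smallest difference, named after its value was seen, was that of vbp1, at 0.58 ± 0.14. In prefoldin, as in CCT, every subunit gene was thus higher in mutants.

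The phosducin-like cochaperones did not move as 1 group. pdcl3 was higher, at 63.8, 59.7 and 56.3 CPM in the mutant libraries, against 30.5, 30.3 and 28.1 CPM in wild type, with a log2 fold change of 1.02 ± 0.10 (SE) and an adjusted p of 7.04e-06 by edgeR. pdcl, known in mammals for its work on G protein beta subunits, was lower, at 59.4, 61.7 and 63.0 CPM in the mutant libraries, against 86.9, 79.2 and 71.0 CPM in wild type. Its log2 fold change was -0.36 ± 0.11 (SE; edgeR adjusted p of 0.0112), and it was not called without the mutant library s1. txndc9 had a log2 fold change of 0.30 ± 0.15 (SE; edgeR adjusted p of 0.103) and was not called. Without wt11, 2 genes of the list were called higher. The symbol pdcl2 was not matched.

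Of 8 tested genes of the URI prefoldin-like module and the R2TP cochaperone, which serve the assembly of larger complexes, 7 were higher and 1 was not called, with a median of 0.59. With upper-quartile scaling or total counts, 1 was called lower, and over the alternatives 5 to 7 were called higher. The largest differences were those of dnaaf10 (1.92 ± 0.15, SE), also known as wdr92, and of ruvbl1 (1.53 ± 0.10), an ATPase of R2TP. dnaaf10 had 20.6, 18.4 and 17.5 CPM in the mutant libraries, against 5.61, 4.67 and 4.69 CPM in wild type. Among the 6 tubulin cofactors, which take tubulin from CCT and build the dimer, 5 were higher and 1 was not called, with a median of 0.87. Their leading members were arl2 (1.29 ± 0.14, SE) and tbcb (1.04 ± 0.11). Of all tested genes, against which both lists are read, 30.5% were called higher and 31.8% lower.

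The substrate genes were read against the background of all tested genes, of which 30.5% were called higher and 31.8% lower. Of 18 tested tubulin genes, 9 were higher and 8 lower, with a median log2 fold change of 0.34. The split between directions was near to even, as over all genes. Both directions took larger shares of this list than of all tested genes. The alpha tubulin genes tuba4l (2.51 ± 0.22, SE) and tuba5 (2.18 ± 0.17) had the largest differences. tuba5 had 1086, 1051 and 987 CPM in the mutant libraries, against 288, 208 and 192 CPM in wild type, whereas tuba4l averaged 5.78 CPM in mutants and 1.01 CPM in wild type. Tubulin genes are alike in sequence, and reads of near-identical copies could be shared between them.

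Of 8 tested actin genes, 5 were higher, 0 lower and 3 not called by edgeR, with a median of 0.55. The cytoplasmic actin gene actb1 had 6099, 7102 and 6336 CPM in the mutant libraries, against 2215, 1795 and 1657 CPM in wild type, a log2 fold change of 1.79 ± 0.16 (SE). actc1c, with 1.23 ± 0.39, was the next largest but was read at a mean of 1.12 CPM in mutants and 0.473 CPM in wild type. Actin genes too share sequence, so their counts carry the same doubt about copies.

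Of 23 tested WD40 and other substrate genes, 7 were higher, 5 lower and 11 not called, with a median of 0.09, close to that of all genes. The share called higher was near the 30.5% of all tested genes, and the share called lower was under their 31.8%. The count called higher was 2 with upper-quartile scaling and with total counts, and it was 2 without s3 and 3 without s1, without s2 or without wt12. The G protein beta subunit gene gnb3b, expressed in cone photoreceptors, was lower at 55.4, 71.3 and 75.8 CPM in the mutant libraries, against 256, 333 and 349 CPM in wild type (log2 fold change -2.21 ± 0.16, SE). One gnb5 copy (ENSDARG00000055377) followed at -2.06 ± 0.17. Photoreceptor markers were lower too, with 9 of 11 tested lower and 1 higher, summing to 325 to 427 CPM in the mutant libraries and 2150 to 3657 CPM in wild type, and their part in the values of gnb3b was not tested.

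**Figure D3:**
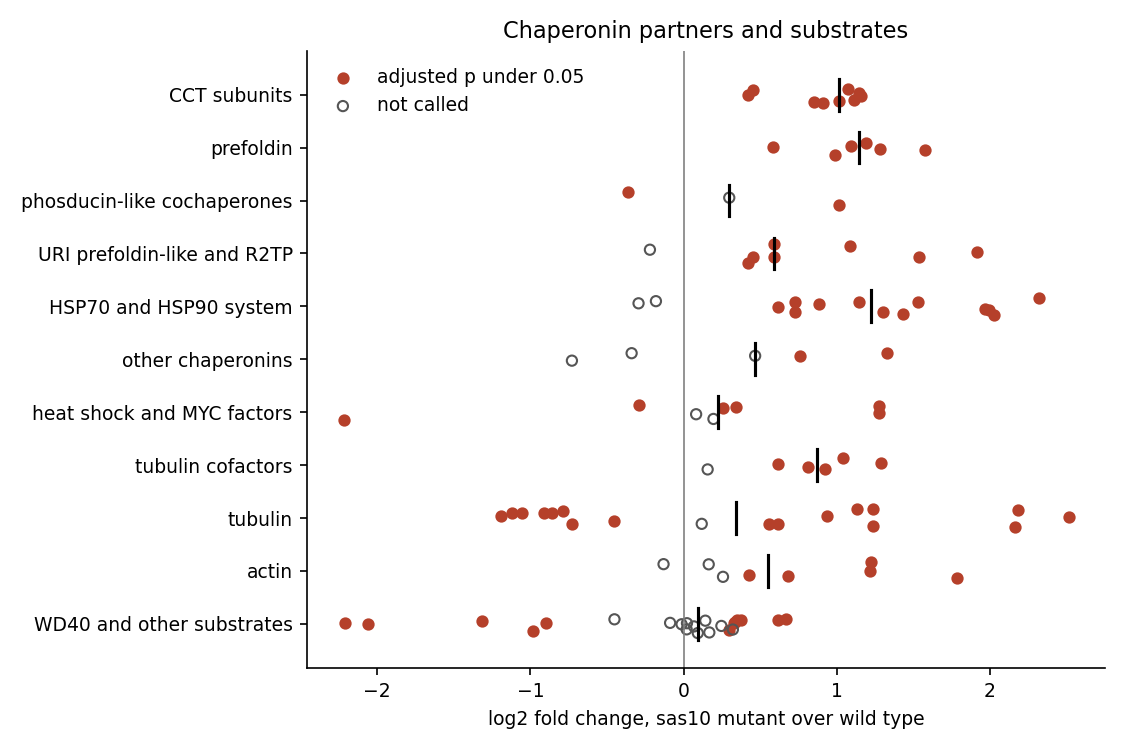
Log2 fold change, sas10 mutant over wild type, of the CCT models and of each tested gene in 10 lists of partners, substrates and other chaperones, filled where the adjusted p was under 0.05 and open where not, with a vertical bar at each list's median. All CCT and prefoldin points lie to the right of 0, while the tubulin and WD40 points lie on both sides of it.

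Other chaperones showed how far the difference extended beyond CCT. The mitochondrial chaperonin, a relative of CCT that folds proteins in the matrix, was higher in both its parts. hspd1 had 253, 267 and 255 CPM in the mutant libraries, against 102, 100.7 and 106 CPM in wild type (log2 fold change 1.33 ± 0.10, SE), and its lid hspe1 had 80.7, 70.6 and 75.7 CPM in the mutant libraries, against 49.7, 45.9 and 38.7 CPM in wild type (0.76 ± 0.12). The chaperonin-like genes mkks, bbs10 and bbs12, whose human counterparts are affected in Bardet-Biedl syndrome, were not called by edgeR, with log2 fold changes of 0.47, -0.34 and -0.73 and adjusted p of 0.174, 0.452 and 0.0562. With upper-quartile scaling, with total counts or without wt12, 1 of the 5 chaperonin genes was called lower. In the HSP70 and HSP90 system, 12 of 14 tested genes were higher, 0 lower and 2 not called, with a median of 1.23. Among all tested genes 30.5% were called higher and 31.8% lower. hsp90aa1.1, an HSP90 known in zebrafish for its place in muscle, had 429, 378 and 393 CPM in the mutant libraries, against 74.6, 74.5 and 90.7 CPM in wild type (2.32 ± 0.13), and the heat-inducible hsp70l averaged 39.9 CPM in mutants and 9.78 CPM in wild type (2.02 ± 0.28).

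The 2 members of that system that were not called are named after their values were seen. One copy of hspa8 (ENSDARG00000068992) had 5819, 6298 and 5891 CPM in the mutant libraries, against 8012, 6586 and 5805 CPM in wild type, so the groups overlapped. hsp90ab1 averaged 3395 ± 185 CPM in mutants and 4161 ± 187 CPM in wild type (SD, n = 3 each), a log2 fold change of -0.29 with an adjusted p of 0.0814 by edgeR. DESeq2, limma voom, the fit without wt11, upper-quartile scaling and total counts each called 1 gene of the system lower. These 2 uncalled genes had the highest CPM of the 14 genes. The summed CPM of the system accordingly overlapped, at 11112 to 11942 in the mutant libraries and 10742 to 12741 in wild type. Such a sum is not comparable with the values of single CCT models.

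Transcription factors known to act on chaperone and growth genes were also listed. Of 8 tested heat shock and MYC factors, 4 were higher, 2 lower and 2 not called, with a median of 0.23. Over all tested genes 62.2% were called in either direction, so 6 of 8 called in mixed directions is no result about these factors. hsf4, a heat shock factor of the lens, was lower at a low level, 0.542, 0.923 and 0.414 CPM in the mutant libraries, against 3.11, 4.61 and 1.08 CPM in wild type (log2 fold change -2.22 ± 0.52, SE). The lens markers were lower in all 6 of 6 cases, summing to 159 to 248 CPM in the mutant libraries and 822 to 1802 CPM in wild type, and their part in the hsf4 values was not tested. One myc copy (ENSDARG00000007241) had 62.5, 65.8 and 53.0 CPM in the mutant libraries, against 23.3, 27.9 and 23.6 CPM in wild type (1.28 ± 0.12). The other myc copy (ENSDARG00000045695), named after its value was seen, averaged 40.2 CPM in mutants and 38.0 CPM in wild type. Its log2 fold change was 0.08, and it was not called. hsf1, named after its value was seen as the main heat shock factor, had a log2 fold change of 0.34 ± 0.11. The count called higher was 2 with upper-quartile scaling, with total counts, without s2 and without s3. The count called lower was 1 with no filter beyond 1 count, with DESeq2, and with any 1 of s1, s2, s3, wt11 or wt12 left out.

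Cell type markers that could move with CCT were set beside these values. Of 12 tested proliferation genes, which mark cells where CCT is known to be abundant, 3 were higher, 6 lower and 3 not called, with a median of -0.27 and sums of 489 to 514 CPM in the mutant libraries and 517 to 566 CPM in wild type. Over all tested genes 30.5% were called higher and 31.8% lower, against which the counts of this and the following lists are read. Skeletal muscle markers summed to 26301 to 27675 CPM in the mutant libraries and 15050 to 20876 CPM in wild type, with 3 of 6 tested higher and 1 lower. By means of mutant and wild type, ckma had 8607 and 4610 CPM, and ckmb 10836 and 4678 CPM. A tnnt3 copy (ENSDARG00000030270) was higher too, at 214 and 147 CPM, and myhz2 was lower, at 841 and 1956 CPM. The other tnnt3 copy (4060 and 4115 CPM) and tnnc2 (2651 and 2189 CPM) were not called. Markers of exocrine pancreas (0 of 5 higher, 5 lower) summed to 109 to 112 CPM in the mutant libraries and 7796 to 12356 CPM in wild type. Those of intestine (0 of 5 higher, 5 lower) summed to 73.1 to 105 CPM in the mutant libraries and 2991 to 3646 CPM in wild type. Those of neurons (0 of 8 higher, 6 lower) summed to 847 to 1004 CPM in the mutant libraries and 1366 to 1748 CPM in wild type. Myeloid markers (3 of 4 higher, 1 lower) summed to 114 to 316 CPM in mutants and 33.1 to 61.9 CPM in wild type. The largest parts in mutants were mmp13a (mean 97.5 CPM, 1.103 CPM in wild type) and an mpeg1 copy (ENSDARG00000043093, 88.9 and 26.1 CPM). Another mpeg1 copy (ENSDARG00000055290) was lower, at 8.73 and 15.02 CPM, while lyz was not tested and mpx was not matched. Erythroid markers (2 of 5 higher, 1 lower) summed to 329 to 587 CPM in mutants and 114 to 171 CPM in wild type. Most of that was hbae3, at means of 393 CPM in mutants and 96.1 CPM in wild type. alas2 and a slc4a1 copy were not called, the other slc4a1 copy was lower, and hbbe1.1 was not matched.

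Hepatocyte markers (1 of 5 higher, 3 lower) summed to 2779 to 3109 CPM in the mutant libraries and 3134 to 4567 CPM in wild type. The largest part of that sum was apoa2, the marker called higher, which averaged 2597 CPM in mutants and 1914 CPM in wild type. The 3 lower markers averaged 8.09 CPM in mutants and 365 CPM in wild type (fabp10a), 318 and 1414 CPM (tfa), and 0.571 and 58.4 CPM (ttr). Motile cilia markers (2 of 5 higher, 0 lower) summed to 31.3 to 34.4 CPM in the mutant libraries and 14.01 to 15.4 CPM in wild type. None of these marker genes that was tested was at 0 in any library. Marker messages of several tissues thus made up different shares of the RNA in the genotypes, and the part of that in the CCT values was not tested. The counts called in these lists are small, and some turned on 1 library, the scaling, the filter or the tool. With upper-quartile scaling, 1 proliferation gene and 0 hepatocyte markers were called higher. With upper-quartile scaling, total counts or DESeq2, 1 motile cilia marker was called higher. With DESeq2, 0 erythroid markers were called lower, and with no filter beyond 1 count, 2 myeloid markers were. Without s2 or s3, 3 proliferation genes were called lower. Without s2 or wt11, 0 photoreceptor markers were called higher, and without s1, s2 or wt12, 0 hepatocyte markers were. Without any 1 of s1, s2, s3, wt11 or wt12, 0 erythroid markers were called lower, and without s1 or s3, 1 motile cilia marker was called higher.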

How the data were processed

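The deposited values are raw counts of read pairs over the exons of each Ensembl GRCz11 gene, made by the authors with featureCounts and without a strand option, per the file headers, so reads of overlapping or antisense genes are uncertain. Per the submitters' processing notes, the tools include DESeq2 1.40.2, Salmon 0.12, HISAT2 2.2.1, fastp 0.20.0 and featureCounts 2.0.1. The authors' deposited comparison gives log2 fold changes, p-values and a mean signal per gene; the first were copied for the members, the mean signal was not used. The deposited ribosomal precursor table was not used here. Column headings that start with wt were taken as wild type. Those that start with s were taken as sas10 mutant, the only other genotype in the sample titles. The headings do not show which numbered replicate a column is.

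The test was edgeR 4.0.16 under R 4.3.3 (TMM scaling, default expression filter, robust quasi-likelihood test of genotype, Benjamini-Hochberg adjustment over 21708 genes, calls at 0.05). The code was tested on simulated data in which far fewer genes differed than were called here, so scaling under such wide differences was not checked. In the deposited counts the coefficient of biological variation was 0.146. Each pair of replicates differed beyond sampling noise, with chi-square values of 7.29 to 30.5 per degree of freedom. TPM used the deposited exon lengths. Shares of subunits, planned as values without a test, were also put to exact permutation tests. DESeq2 1.42.0 and limma 3.58.1 were alternatives. Symbols matched 29201 of 32520 identifiers, and 13 of 174 listed symbols were not matched.

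The members and lists were chosen with earlier results of these data known. Named were all members, the 2 called genes of largest change in each pathway list, lists of 5 or fewer genes whole, and the 5 genes of at least 10 CPM most like the family. Promoter motifs were not analysed here.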

Additional observations from a re-analysis of the deposited data

How the results depend on the processing

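The CCT models called higher numbered 9 with RLE scaling, total counts, either other filter, DESeq2 and limma voom, 7 with upper-quartile scaling, and 8 to 9 with 1 library left out. With both cct2 models summed, 8 of 8 genes were called. Every member stayed positive in every alternative, the lowest value being 0.29 for cct6a with upper-quartile scaling. That scaling moved the median log2 fold change of all genes to -0.17, and total counts moved it to -0.12, against -0.04 as reported. A change of scaling moves all genes by nearly the same amount. The distance of the members from that median could therefore hardly differ between scalings, and it is no check of the calls. The CCT share of all TPM, mutant over wild type, was 1.88 without mitochondrially encoded genes, 1.93 as RPKM on scaled libraries and 1.81 to 1.90 with 1 library left out. With no length scaling the share of tcp1 reversed to 0.26 percentage points higher in mutants, within overlapping groups, and those of cct6a and cct8 were -4.94 and -3.00. Of all genes, 5630 to 7129 were called higher and 5937 to 8047 lower over the alternatives. No paired analysis was possible, because the labels name no clutches and the column headings do not carry the replicate numbers of the labels. With 3 libraries a group, exact tests of a single value cannot go under 0.10.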
